A study of Mus musculus with 16 samples.

Results

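Haemoglobin and red cell transcripts were read in sections of the mouse brachiocephalic artery, the first branch of the aortic arch and a usual site of plaque in mice that lack Apoe. The genes were chosen by name: the adult alpha globin genes Hba-a1 and Hba-a2, the adult beta globin genes Hbb-bs and Hbb-bt, and Alas2, Slc4a1 and Bpgm. Earlier results of these data were known when they were chosen. All 7 had a row among the 55356 named rows of the count table.

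The 16 libraries came from 16 female mice, 4 in each of 4 groups. The groups were Apoe-/- mice after 24 weeks of a Western-type diet, Apoe-/-Mif-/- mice after 24 weeks, Apoe-/- mice after 42 weeks and Apoe-/-Mif-/- mice after 42 weeks. All 16 mice lacked the apolipoprotein gene Apoe, the controls included, and 8 also lacked Mif, the gene of macrophage migration inhibitory factor. The diet held 0.2% cholesterol and 21.2% fat and began at 6 weeks of age, so the mice were 30 or 48 weeks old at the end; no mice on chow were among the groups. Lysates of 3 to 4 frozen sections of 5 µm were pooled per mouse, which makes a library 1 mouse and a mixture of every cell on the section, any blood in the vessel included. Libraries are numbered 1 to 4 within a group, with no pairing between groups, and p-values measure the spread between mice.

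Haemoglobin is a tetramer of alpha and beta chains, each of which holds haem. Erythroid cells of the marrow and spleen make the chains, and the youngest red cells in blood, the reticulocytes, still carry globin mRNA. Alas2 encodes the erythroid enzyme that starts haem synthesis, Slc4a1 the band 3 anion exchanger of the red cell membrane, and Bpgm the mutase that makes 2,3-bisphosphoglycerate, which lowers the oxygen affinity of haemoglobin. Alpha globin is also known from the endothelium of small arteries, where it controls nitric oxide together with the reductase Cyb5r3.

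The copies within each chain are nearly the same gene, which bears on every value given for a single copy. In GENCODE M21 (build GRCm38) the coding sequences of Hba-a1 and Hba-a2 differed at 1 of 429 bases, and those of Hbb-bs and Hbb-bt at 1 of 444. Both differences are shown within 60 coding bases, 5′ to 3′, bases 351 to 410 for the alpha pair and bases 385 to 444 for the beta pair, counted from the A of the start codon. The capital marks the base that differs.
Hba-a1: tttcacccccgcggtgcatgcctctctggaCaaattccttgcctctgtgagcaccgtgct
Hba-a2: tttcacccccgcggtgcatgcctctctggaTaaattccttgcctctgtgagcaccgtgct
Hbb-bs: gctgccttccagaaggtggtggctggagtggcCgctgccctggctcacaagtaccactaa
Hbb-bt: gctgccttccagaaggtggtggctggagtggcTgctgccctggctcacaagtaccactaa
Reads from the shared bases cannot be told apart by sequence, and how the authors' counting shared them out is not given in the sources used here. Values of a single copy are therefore uncertain, and the sum of each pair is given beside them.

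The 250 bases before the start site are shown for 4 members, to set the globin genes beside Alas2. They come from RefSeq with the build GRCm38.p6, which is not the build GRCm39 that the submitters name for their alignment, and 6 of the 7 members matched an entry. Capitals mark 4 short motifs long known from globin promoters, on either strand: the GATA factor motif GATAA, the CACCC box, the CCAAT box and the TATA motif TATAA. Neighbouring matches can overlap or run together.
Hba-a1 (chr11:32283422-32283671, plus strand): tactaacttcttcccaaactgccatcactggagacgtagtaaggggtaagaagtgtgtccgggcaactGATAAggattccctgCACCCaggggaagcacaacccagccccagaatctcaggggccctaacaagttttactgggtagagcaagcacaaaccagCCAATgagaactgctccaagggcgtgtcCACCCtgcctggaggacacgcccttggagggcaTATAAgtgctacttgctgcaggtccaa
Hbb-bs (chr7:103827929-103828178, minus strand): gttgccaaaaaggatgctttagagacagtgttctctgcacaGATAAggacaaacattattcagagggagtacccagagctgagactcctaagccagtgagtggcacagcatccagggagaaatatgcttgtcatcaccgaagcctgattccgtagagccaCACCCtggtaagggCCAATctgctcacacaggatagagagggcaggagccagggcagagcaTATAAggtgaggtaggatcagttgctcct
Hbb-bt (chr7:103813924-103814173, minus strand): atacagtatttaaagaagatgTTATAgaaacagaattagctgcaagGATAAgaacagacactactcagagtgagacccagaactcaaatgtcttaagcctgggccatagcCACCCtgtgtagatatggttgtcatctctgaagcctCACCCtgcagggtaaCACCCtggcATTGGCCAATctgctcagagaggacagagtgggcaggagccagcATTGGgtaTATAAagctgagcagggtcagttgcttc
Alas2 (chrX:150547167-150547416, plus strand): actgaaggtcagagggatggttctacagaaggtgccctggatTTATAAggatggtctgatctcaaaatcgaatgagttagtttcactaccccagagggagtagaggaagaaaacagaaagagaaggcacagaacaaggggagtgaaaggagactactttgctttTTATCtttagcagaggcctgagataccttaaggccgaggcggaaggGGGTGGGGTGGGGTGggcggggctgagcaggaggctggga
All 4 globin genes held all 4 motifs, as did 1.01% of the 27025 mouse promoters in the same table; single motifs were common, at 23.0% of promoters for GATAA, 51.3% for CACCC, 34.5% for CCAAT and 23.5% for TATAA. The Hba-a1 and Hba-a2 windows shared an unbroken run of 247 bases. Alas2 held 3 of the motifs, and Bpgm held CCAAT alone, at 3 places. A match is only a match of letters, and binding was not measured.

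Library totals ran from 378066 to 8649525 counts, in the 42-week Apoe-/- library 1 and the 24-week Apoe-/- library 3. The artery markers Acta2 and Myh11 of smooth muscle and Lyz2 and Cd68 of macrophages were counted in every library, Acta2 from 426 to 12016 CPM (CPM, the count divided by the TMM-scaled library total) and Lyz2 from 943 to 19449 CPM. Mif lay between 23.2 and 301 CPM in the libraries with the gene and between 2.39 and 19.9 CPM in those without. Apoe, whose transcript can still be made from the mutated gene, reached 1127 CPM in 1 Apoe-/- library at 42 weeks and at most 194 CPM in the others. The 24-week Apoe-/- library 4 stood apart with 3846 summed CPM of 7 thymocyte and T cell genes, against 2.67 to 290 in the other 15.

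Globin transcripts were present in all 16 libraries and made up nearly all of the members' counts. Together the 7 members took 0.0193% (exact Clopper-Pearson 95% interval 0.0183% to 0.0202%) of the counts in the library with the least, the 24-week Apoe-/- library 3. They took 1.49% (1.48% to 1.50%) in the library with the most, the 42-week Apoe-/- library 2. At 24 weeks this share averaged 0.0592% ± 0.0424 (SD, n = 4) with Mif and 0.122% ± 0.0668 without it, and at 42 weeks 0.488% ± 0.670 and 0.229% ± 0.169. The 4 globin genes gave 97.9% to 100% of the members' counts in every library at 42 weeks, but as little as 44.9% in the 24-week Apoe-/- library 4, where Slc4a1 and Bpgm were high. In these bulk sections fewer cells of a type and less RNA per cell cannot be told apart.

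Per kilobase of transcript (the longest protein-coding one in GENCODE M21), the median level over the 16 libraries was 785 CPM per kb for Hbb-bs, 606 for Hba-a1, 494 for Hba-a2 and 96.8 for Hbb-bt. Bpgm had 3.76 CPM per kb, Alas2 0.337 and Slc4a1 0.0406. The globin genes thus lay well above the other members, while the levels of Hbb-bs, Hba-a1 and Hba-a2 differed by less than the range between libraries of a single group.

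Hba-a1 was counted at 405, 121, 50.6 and 90.03 CPM in libraries 1 to 4 of the Apoe-/- mice at 24 weeks and at 102, 527, 377 and 724 CPM in the Apoe-/-Mif-/- mice at 24 weeks. At 42 weeks it was counted at 710, 7210, 207 and 868 CPM in Apoe-/- and at 1195, 1912, 328 and 442 CPM in Apoe-/-Mif-/- mice. The Apoe-/- libraries at 24 weeks were low apart from library 1, the 42-week Apoe-/- library 2 was far above all others, and every pair of groups overlapped.

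Hba-a2 ran at 294, 64.0, 30.6 and 35.6 CPM in Apoe-/- and at 22.9, 355, 253 and 175 CPM in Apoe-/-Mif-/- mice at 24 weeks. At 42 weeks the values were 441, 3455, 108 and 539 CPM in Apoe-/- and 689, 784, 200 and 400 CPM in Apoe-/-Mif-/- mice. The 42-week Apoe-/- library 2 was again the highest of all, and every pair of groups overlapped.

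Hbb-bs, the more abundant beta copy in these counts, stood at 531, 84.1, 51.3 and 87.8 CPM in Apoe-/- and at 70.1, 781, 455 and 186 CPM in Apoe-/-Mif-/- mice at 24 weeks. At 42 weeks it stood at 729, 7967, 188 and 593 CPM in Apoe-/- and at 1194, 3053, 388 and 631 CPM in Apoe-/-Mif-/- mice. Library 2 was the highest of its group in both 42-week groups, and the 24-week Apoe-/- library 1 lay within the range of both.

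Hbb-bt was counted at 37.4, 15.03, 3.05 and 15.6 CPM in Apoe-/- and at 13.8, 70.1, 95.2 and 63.4 CPM in Apoe-/-Mif-/- mice at 24 weeks. At 42 weeks it was counted at 69.6, 1235, 43.1 and 99.1 CPM in Apoe-/- and at 249, 552, 66.6 and 89.9 CPM in Apoe-/-Mif-/- mice. Its 4 Apoe-/- libraries at 42 weeks all lay above its 4 at 24 weeks, with the closest values 43.1 and 37.4 CPM.

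**Figure D1:**
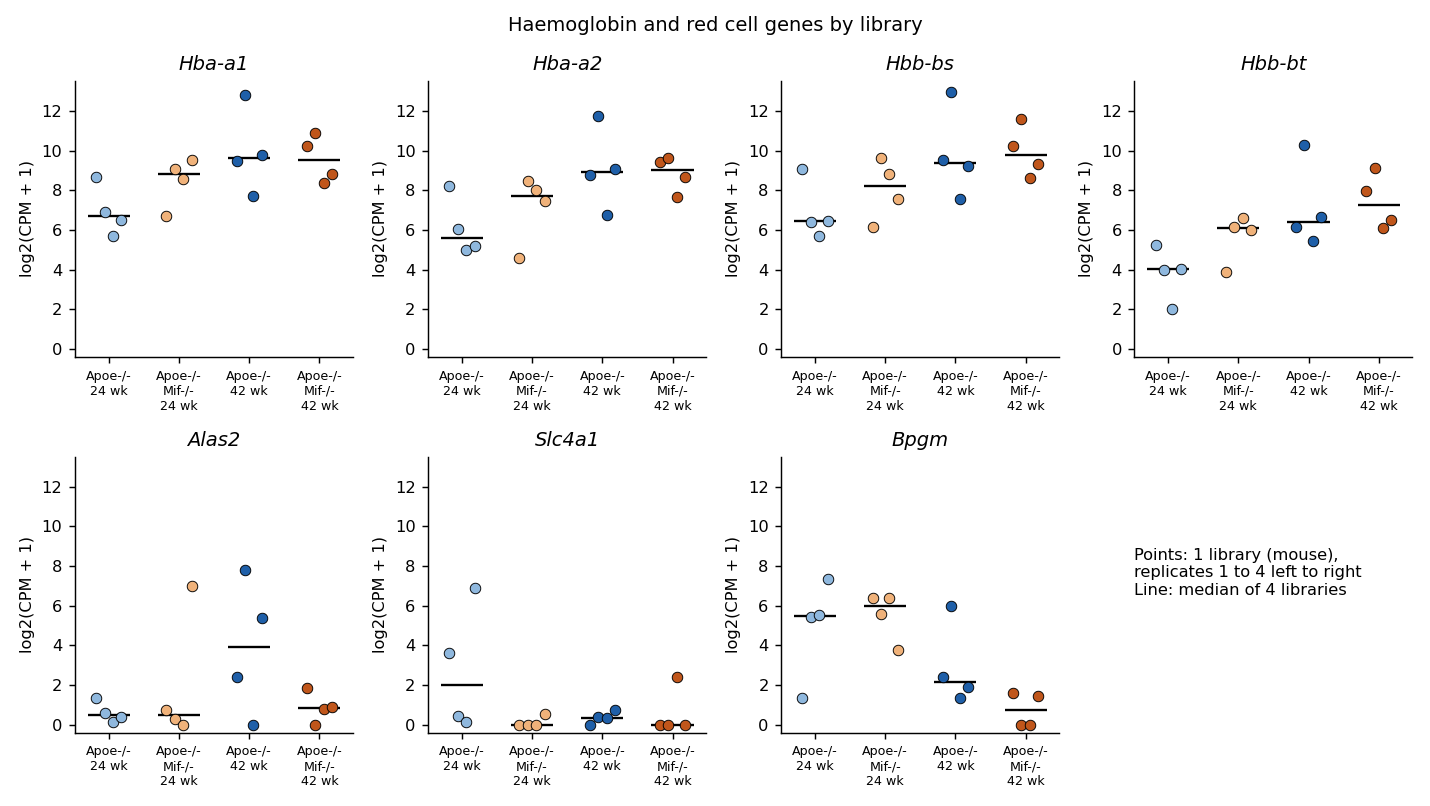
Level of each of the 7 genes as log2(CPM + 1) on the vertical axis, with 1 point per library, the 4 groups along the horizontal axis and a line at the group median. The 4 globin genes share 1 shape, with the 42-week Apoe-/- library 2 on top, whereas Alas2, Slc4a1 and Bpgm sit near 0 in many libraries and are high in a few.

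Summed over the 4 globin genes, the groups ranked by mean level as Apoe-/- at 24 weeks (479 ± 529 CPM, SD, n = 4), Apoe-/-Mif-/- at 24 weeks (1068 ± 632 CPM), Apoe-/-Mif-/- at 42 weeks (3043 ± 2390 CPM) and Apoe-/- at 42 weeks (6115 ± 9194 CPM). The group medians were 256, 1164, 2445 and 2024 CPM in that order, so the 42-week groups swapped order with the measure. For each pair of neighbours the distance between the means was smaller than the larger of their SDs.

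Alpha and beta globin varied together from library to library. The log2 CPM of the alpha pair and of the beta pair had a Pearson r of 0.969 over 16 libraries (permutation p = 1e-05, the smallest that the resamples can give; adjusted p = 4e-05 over 4 relations) and a Spearman rho of 0.924 (permutation p = 2e-05, adjusted p = 8e-05). Without the libraries farthest from the median, the 42-week Apoe-/- library 2 and the 24-week Apoe-/- library 3, r was 0.941. The letters B and C in the codes of the sample titles are read here as plate rows, though the titles do not call them that. Within the 12 libraries of plate row B r was 0.987. Row C held 4 libraries of 1 group, too few for a value of its own. Both sums are divided by the same library total, which is part of what they share.

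**Figure D2:**
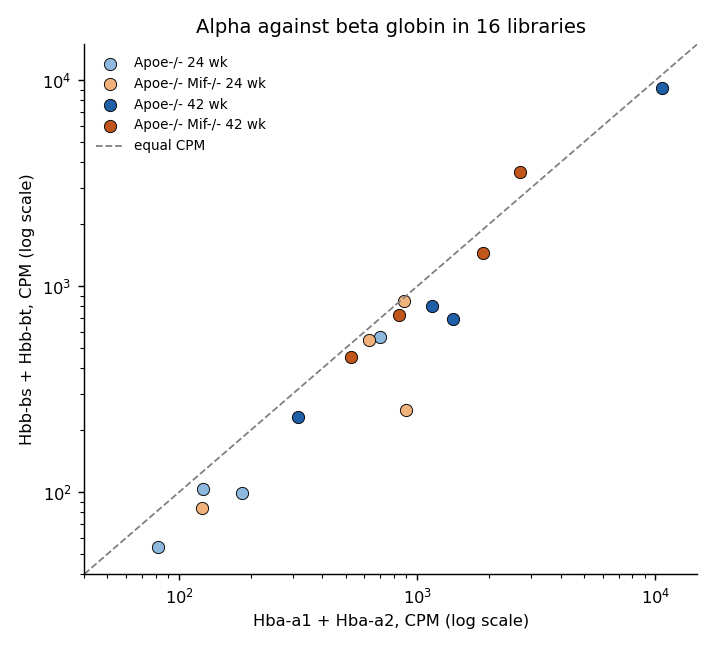
Summed alpha globin (horizontal) against summed beta globin (vertical), both in CPM on log axes, with 1 point per library coloured by group and a dashed line at equal CPM. The points follow the line over a range from 81.2 to 10665 CPM of alpha globin, and the point farthest below it is the 24-week Apoe-/-Mif-/- library 4, with 3.6 alpha counts per beta count.

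The ratio of alpha to beta counts does not depend on library totals. At 24 weeks it averaged 1.45 ± 0.303 (SD, n = 4) with Mif and 1.82 ± 1.20 without it, and at 42 weeks 1.50 ± 0.375 and 1.10 ± 0.241. The lowest ratio, 0.748, was in the 42-week Apoe-/-Mif-/- library 2, and the highest, 3.6, in the 24-week Apoe-/-Mif-/- library 4. In that library alpha globin made up 78.3% (exact Clopper-Pearson interval 76.6% to 79.9%) of 2484 globin counts, and it was 1 of the 3 libraries with many Alas2 counts. The other two of these had ratios of 1.16 and 2.03, and whether the ratio and Alas2 are linked was not tested.

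The split between copies was steadier than the level. Hba-a1 took 52.5% to 81.7% of the alpha counts and Hbb-bs 74.6% to 94.4% of the beta counts. Group means were 64.3%, 70.4%, 64.2% and 62.2% for Hba-a1, and 89.4%, 83.2%, 86.2% and 85.1% for Hbb-bs, in the order Apoe-/- and Apoe-/-Mif-/- at 24 weeks, then the same at 42 weeks. The ranges of the 4 groups overlapped for both copies.

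Other globin genes were nearly silent. Of 8 further loci in the table, 6 were at 0 counts in all 16 libraries, among them Hba-x, the embryonic zeta chain. A count of 0 allows up to 3 counts per library. Hbb-y, the embryonic epsilon-like chain, had 3 counts, all in the 42-week Apoe-/- library 2, where Hbb-bs had 26964. Hbq1a, a theta chain, had 32 counts, 30 of them in the 42-week Apoe-/-Mif-/- library 3. The chaperone gene Ahsp was not analysed here.

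Alas2 was present in quantity in 3 of 16 libraries. It had 3, 3, 1 and 1 counts in the Apoe-/- mice at 24 weeks, 1, 1, 0 and 276 in the Apoe-/-Mif-/- mice at 24 weeks, 2, 747, 0 and 59 in the Apoe-/- mice at 42 weeks and 5, 0, 3 and 2 in the Apoe-/-Mif-/- mice at 42 weeks. The 3 libraries reached 128, 221 and 41.2 CPM, and no other library passed 5 counts. The globin-rich libraries 1 and 2 of the Apoe-/-Mif-/- mice at 42 weeks had 5 and 0 Alas2 counts beside 6477 and 4524 globin counts.

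Slc4a1 was present in quantity in 1 library and at a low count in 2. It had 22, 2, 1 and 375 counts in the Apoe-/- mice at 24 weeks, 0, 0, 0 and 1 in the Apoe-/-Mif-/- mice at 24 weeks, 0, 1, 1 and 1 in the Apoe-/- mice at 42 weeks and 0, 0, 18 and 0 in the Apoe-/-Mif-/- mice at 42 weeks. It did not pass the filter on low counts and was not tested between groups. The 24-week Apoe-/- library 4, with 87.0% of the summed Slc4a1 CPM, was the one with thymocyte and T cell genes, and it also held 131 counts of Sptb and 85 of Epb42, which encode beta spectrin and protein 4.2 of the red cell skeleton. These 2 genes were singled out after their values were seen, and others of the same list of 17 were low there, such as Gypc, glycophorin C, at 15 counts and Ank1, ankyrin, at 5. The list summed to 414 CPM in this library, the lowest sum of its group. Globin was not high there, at 733 counts for the 4 genes, and the part of the thymocyte and T cell genes in the Slc4a1 count was not tested.

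Bpgm, which other tissues also express, was high in a different set of libraries. It had 3, 249, 419 and 523 counts in the Apoe-/- mice at 24 weeks, 128, 225, 401 and 27 in the Apoe-/-Mif-/- mice at 24 weeks, 2, 209, 6 and 4 in the Apoe-/- mice at 42 weeks and 4, 0, 0 and 4 in the Apoe-/-Mif-/- mice at 42 weeks. It thus had over 20 counts in 7 of 8 libraries at 24 weeks and in 1 of 8 at 42 weeks. The cut at 20 was not planned, library totals differ, and the 4 Apoe-/-Mif-/- libraries at 24 weeks were those of plate row C. For 42 against 24 weeks edgeR called Bpgm in neither genotype (adjusted p = 0.665 in Apoe-/- and 0.183 in Apoe-/-Mif-/- mice). Every Apoe-/-Mif-/- library at 42 weeks lay below every one at 24 weeks, whereas in Apoe-/- mice library 1 at 24 weeks and library 2 at 42 weeks crossed over.

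**Figure D3:**
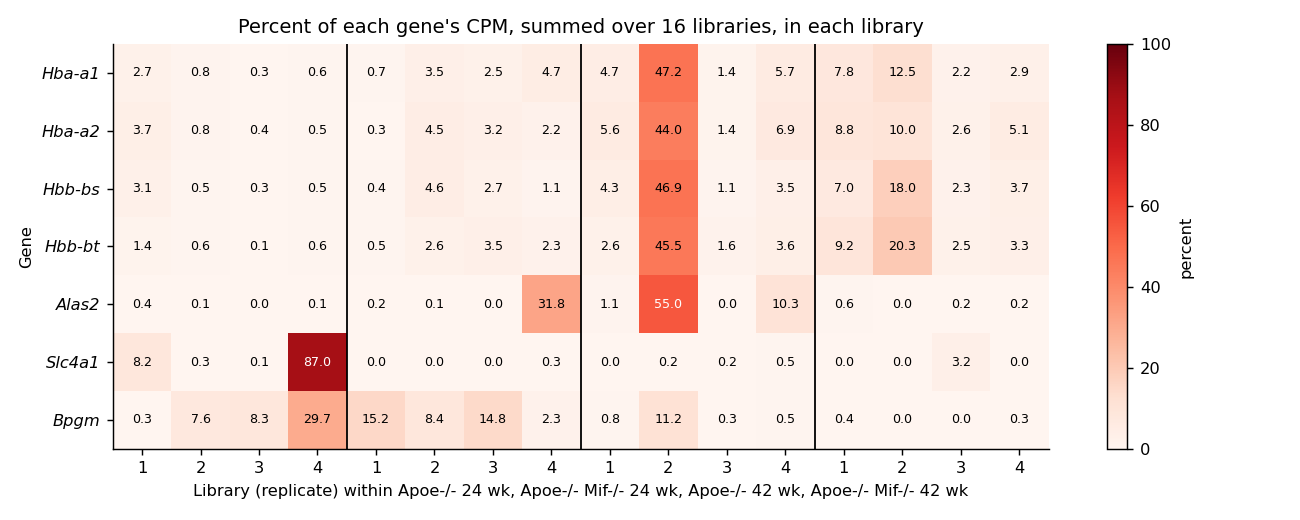
Share of each gene's CPM, summed over 16 libraries, that lay in each library, in percent by colour and number, with genes in rows and libraries in columns by group. The 42-week Apoe-/- library 2 held 44.0% to 47.2% of each globin gene and 55.01% of Alas2, while Slc4a1 had 87.0% in the 24-week Apoe-/- library 4.

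Uneven spread over libraries was common in these data. The largest library of a gene held a median of 32.2% of its CPM over the 10634 genes tested, with quartiles of 23.1% and 45.2%. The globin genes, at 44.0% to 47.2%, lay near the upper quartile, Bpgm at 29.7% below the median, and Alas2 at 55.01% and Slc4a1 at 87.0% above the upper quartile.

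None of the other 3 members followed globin closely. Pearson r between the log2 CPM of the summed globin genes and of Alas2 was 0.526 over 16 libraries (permutation p = 0.0381, adjusted p = 0.0763 over 4 relations; Spearman rho 0.416, permutation p = 0.11, adjusted p = 0.22), and 0.201 without the same 2 libraries, so that it rests on them. Within plate row B it was 0.665 (permutation p = 0.0174, adjusted p = 0.0348; rho 0.571, permutation p = 0.0555, adjusted p = 0.111), and 0.313 without the same 2 libraries. For Slc4a1 r was -0.29 (permutation p = 0.274, adjusted p = 0.274; rho -0.28, permutation p = 0.295, adjusted p = 0.295) and without the 2 libraries -0.41. For Bpgm r was -0.37 (permutation p = 0.156, adjusted p = 0.207; rho -0.33, permutation p = 0.21, adjusted p = 0.28) and without them -0.65. Within row B these were -0.37 and -0.35.

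The genes whose levels ranked the libraries most like globin are known for other roles. By Spearman rho over the 16 libraries, given as a description, they were Trappc2l, a subunit of a vesicle tethering complex, at 0.835, Rpl23 at 0.824, Septin9, a filament-forming GTPase, at 0.809, Rplp1 and Rps9 at 0.774, Atp6v0e, a proton pump subunit, at 0.771, Dis3l, a subunit of the RNA exosome, at 0.756 and Rps3 at 0.747. Another 2 of the first 10 were a pseudogene and a predicted gene. Rpl23, Rplp1, Rps9 and Rps3 encode ribosomal proteins. For comparison, rho between Hba-a2 and Hbb-bs was 0.965. The points share depth and scaling, and the 10 were the highest of 10634 genes.

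The first comparison asked whether the members differed between 42 and 24 weeks of diet in Apoe-/- arteries. The mice were then 48 and 30 weeks old, so that time on diet and age cannot be told apart. Mean globin levels were higher at 42 than at 24 weeks in this genotype, and the fitted log2 fold change was 3.76 ± 0.912 (SE, 95% interval 1.91 to 5.605) for Hba-a1, 3.42 ± 0.976 for Hba-a2, 3.65 ± 0.971 for Hbb-bs and 4.35 ± 1.20 for Hbb-bt. None passed edgeR's quasi-likelihood test over all genes (adjusted p = 0.322 for each), and the summed pairs gave 3.64 and 3.73 (adjusted p = 0.323 for each). Alas2 had a log2 fold change of 6.80 ± 2.25 (edgeR adjusted p = 0.322), which rests on libraries 2 and 4 at 42 weeks, and Bpgm of -1.82 ± 1.49 (edgeR adjusted p = 0.665). By edgeR 0 of the 6 tested members were called, where 0% of all genes were. At an unadjusted p under 0.05, 5 members were higher and 0 lower, against 3.87% of all genes higher and 8.36% lower. The globin genes varied together and their copies are nearly the same gene. In this and every other count of members they are thus not separate results. The median log2 fold change was 3.70 over the 6 members and -0.12 over all 10634 genes.

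Other tools and libraries moved these counts. With DESeq2, 5 of 6 members passed, the 4 globin genes and Alas2 (adjusted p from 0.0115 to 0.0461), where 4.41% of all genes did. With limma on the deposited log2 values 0 of 5 passed, where 0% of all genes did. With edgeR and no filter on low counts 2 members passed, Hba-a1 and Hbb-bs. The share of all genes that passed without the filter is not given here, so these 2 are not set against it. Without library 2 of the 42-week mice the log2 fold changes were 1.87 for Hba-a1, 1.80 for Hba-a2, 1.41 for Hbb-bs and 2.03 for Hbb-bt. They kept their sign and were smaller by more than 1.5 times. Hbb-bt was the only member of 7 with all 42-week libraries above all 24-week libraries, as were 1.06% of all genes tested.

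Markers of other cell types and library totals are set beside this comparison. Macrophage genes were higher at 42 weeks in Apoe-/- mice in 4 of 7 (median log2 fold change 1.09, 0 called by edgeR), with summed levels of 4768 to 46376 CPM at 24 weeks and 20085 to 36548 at 42 weeks. White adipocyte genes were lower in 4 of 5 (median -1.21), from 58.8 to 12443 CPM at 24 and from 143 to 3009 at 42 weeks. Thymocyte and T cell genes were lower in 4 of 5 (median -5.89), with 2.70 to 3846 CPM at 24 and 7.98 to 188 at 42 weeks. Only library 4 at 24 weeks reached 3846 CPM, and the others of its group had 2.70 to 102 CPM. Proliferation genes were lower in 3 of 4 (median -2.13), but their sums were alike, at 3.03 to 176 CPM (median 52.2) and 6.32 to 162 CPM (median 50.9). None of these genes was called by edgeR. Library totals at 24 weeks ran from 2163721 to 8649525 counts and at 42 weeks from 378066 to 4586280. Library 2 at 42 weeks, the globin-rich one, also had the highest summed level of 10 endothelial genes, 5442 CPM against 543 to 3855 in the other 15. Its Pecam1 was 2064 CPM, and its Cyb5r3, 1442 CPM, was close to that of 2 Apoe-/-Mif-/- libraries at 42 weeks. Vwf averaged 670 CPM in its group against 63.6 to 131 in the other groups. Kdr averaged 10.1 CPM there against 5.57 to 339, and Nos3 2.57 against 4.42 to 34.1. The library also had the highest sum of 18 red cell enzyme and maturation genes, 10808 CPM, with Gpx1 at 9201, against at most 6439 elsewhere. Its 9 erythroid regulators summed to 504 CPM, with Lmo2 at 503, against at most 263. The part of each in the globin difference was not tested. The alpha to beta ratio in that library, 1.16, was within the range of the others.

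The same comparison in Apoe-/-Mif-/- arteries crossed plate rows, since all 4 libraries at 24 weeks lay in row C and all others in row B. Row, duration and age therefore cannot be told apart in it. Globin had positive log2 fold changes again, of 1.16 ± 0.828 (SE) for Hba-a1, 1.36 ± 0.904 for Hba-a2, 1.82 ± 0.901 for Hbb-bs and 1.98 ± 1.09 for Hbb-bt (edgeR adjusted p from 0.384 to 0.564). The 2 remaining members had negative ones. Bpgm had a log2 fold change of -5.77 ± 1.81 (edgeR adjusted p = 0.183), and Alas2 of -4.83 ± 2.07 (edgeR adjusted p = 0.321). The value for Alas2 turned to 2.25 without library 4 of the 24-week mice. White adipocyte genes were higher at 42 weeks in 5 of 5 (median log2 fold change 4.90), with 87.1 to 485 CPM summed at 24 and 89.3 to 8421 at 42 weeks. One of them was called, Plin1, which coats the fat droplet, at 8.91 ± 1.88 (SE, edgeR adjusted p = 0.0401). The part of these genes in the values for the members was not tested.

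By edgeR 0 of 6 members were called here, against 0.122% of all genes, and at an unadjusted p under 0.05, 2 were lower and 0 higher, against 5.63% and 7.45% of all genes. DESeq2 passed 1 of 6, Bpgm (adjusted p = 0.00830), where 6.2% of all genes passed, and limma 0 of 5, where 0.0209% of all genes passed. Non-overlap of Bpgm, with all 42-week libraries below, was shared by 3.03% of all genes. The median log2 fold change was 1.26 over the members and 0.12 over all genes.

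The effect of Mif deletion was then compared at each duration. At 24 weeks globin had positive values without Mif, with log2 fold changes of 1.38 ± 0.833 (SE) for Hba-a1, 0.93 ± 0.896 for Hba-a2, 0.99 ± 0.882 for Hbb-bs and 1.78 ± 1.08 for Hbb-bt, with edgeR adjusted p from 0.811 to 0.935. Alas2 had 5.74 ± 2.15 (edgeR adjusted p = 0.426) and -1.21 without library 4 of the Apoe-/-Mif-/- mice, the library with all but 2 of that group's counts. Bpgm had -0.18 ± 1.44 (edgeR adjusted p = 0.992). By edgeR 0 of 6 members were called, against 0.047% of all genes. At an unadjusted p under 0.05, 1 member was higher and 0 lower, against 1.77% and 5.57% of all genes. DESeq2 passed 1, Alas2 (adjusted p = 0.0384), where 2.27% of all genes passed, and limma 0 of 5, where 0% did. Plate row and genotype cannot be told apart in this comparison. White adipocyte genes were lower without Mif in 5 of 5 (median -4.58), with Plin1 called at -9.39 ± 1.91 (SE, edgeR adjusted p = 0.0466). Thymocyte and T cell genes were lower in 5 of 5 (median -4.12, 0 called by edgeR), with 2.67 to 152 CPM summed without Mif against 2.70 to 3846 with it. The 3846 CPM was in library 4 of the Apoe-/- mice, and the others of that group had 2.70 to 102 CPM. The part of both lists in the values for the members was not tested.

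At 42 weeks, within plate row B, every tested member had a negative value without Mif. The log2 fold changes were -1.21 ± 0.83 (SE) for Hba-a1, -1.13 ± 0.899 for Hba-a2, -0.85 ± 0.880 for Hbb-bs and -0.60 ± 1.05 for Hbb-bt (edgeR adjusted p from 0.445 to 0.809), -5.88 ± 2.17 for Alas2 (0.185) and -4.12 ± 1.69 for Bpgm (0.214). Without library 2 of the Apoe-/- mice the globin genes turned to 0.77, 0.59, 1.47 and 1.81 in the same order, so their direction rests on that library. Bpgm had 209 counts in the same library and at most 6 in the others compared. Alas2 had 747 and 59 counts in Apoe-/- libraries 2 and 4 and at most 5 in the others. Leaving out single libraries moved Bpgm between -4.69 and -1.28 and Alas2 between -6.75 and -3.77. With size factors in place of TMM, Hbb-bt turned to 0.27.

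By edgeR 0 of 6 members were called in this comparison, against 0% of all genes. At an unadjusted p under 0.05, 2 were lower and 0 higher, against 7.99% and 9.26% of all genes. DESeq2 passed 1, Alas2 (adjusted p = 0.0377), where 9.94% of all genes passed, and limma 0 of 5, where 0% did. White adipocyte genes were higher without Mif in 4 of 5 (median 2.03), thymocyte and T cell genes in 3 of 5 (median 1.51), and neutrophil genes were lower in 3 of 4 (median -4.13), with 0 called by edgeR in each list. The neutrophil genes summed to similar medians, 31.2 CPM with Mif and 28.4 CPM without it. Apoe-/- library 1, with the fewest counts at 378066, had the highest sum, 156 CPM. The part of these lists in the values for the members was not tested.

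**Figure D4:**
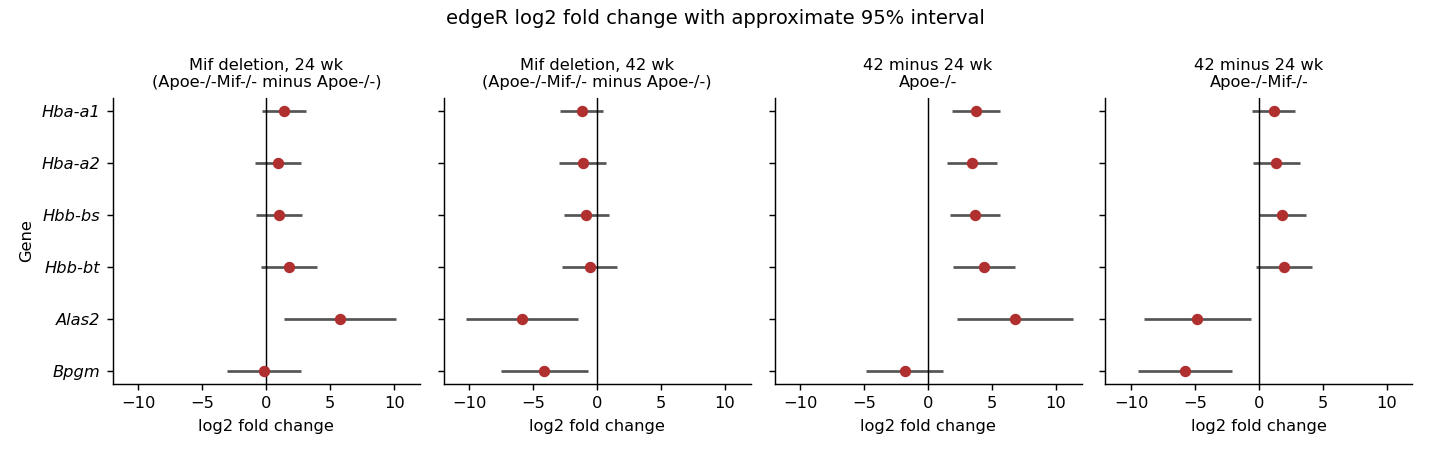
Log2 fold change from edgeR (horizontal) with its approximate 95% interval for the 6 tested genes (vertical) in 4 comparisons, which share libraries in pairs. The 4 globin points lie between 3.42 and 4.35 for 42 against 24 weeks in Apoe-/- mice and between -1.21 and 1.98 in the other panels, and no gene passed the adjusted test in any panel.

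Whether the effect of Mif deletion differed between durations was tested by the interaction, which includes the group in plate row C, so that row and interaction cannot be told apart. Its log2 values were -2.59 ± 1.17 (SE) for Hba-a1, -2.06 ± 1.27 for Hba-a2, -1.84 ± 1.25 for Hbb-bs and -2.38 ± 1.50 for Hbb-bt (edgeR adjusted p from 0.304 to 0.530). Alas2 came closest to the threshold, at -11.63 ± 3.05 (edgeR adjusted p = 0.0608), a value that rests on the 3 libraries with many counts, and Bpgm had -3.95 ± 2.16 (0.404). By edgeR 0 of 6 members were called, against 0.686% of all genes. At an unadjusted p under 0.05, 2 were lower and 0 higher, against 4.86% and 9.36% of all genes. DESeq2 passed 1, Alas2 (adjusted p = 9.77e-04), where 5.74% of all genes passed, and limma 0 of 5, where 0% did. Leaving out single libraries moved the Alas2 value between -12.66 and -4.62 (edgeR adjusted p 0.0536 to 0.482). The globin values moved as well, between -3.59 and -0.65 for Hba-a1 and between -3.40 and -0.34 for Hba-a2. Hbb-bs ran from -3.24 to 0.50 and Hbb-bt from -3.12 to 0.021. White adipocyte genes had positive interaction values in 5 of 5 (median 5.501, Plin1 called, edgeR adjusted p = 0.0136), as did thymocyte and T cell genes in 5 of 5 (median 6.27, 0 called). The latter include the 24-week Apoe-/- library 4, with 3846 summed CPM against 2.70 to 102 in the rest of its group. Among 10 endothelial genes Kdr, a receptor for Vegf, was called at 9.64 ± 2.32 (SE, edgeR adjusted p = 0.0432). The part of these genes in the interaction values was not tested.

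The rest of the red cell programme was taken from 6 lists of genes, of which 39 were tested, and edgeR called 0 of these in each of the 5 comparisons. For 42 against 24 weeks in Apoe-/- mice, 3 of the 39 were higher and 1 lower at an unadjusted p under 0.05, DESeq2 passed 1 of 36, Blvra, and limma 0 of 35. The shares over all genes, given above, were 3.87%, 8.36%, 4.41% and 0% for the same calls. In the other 4 comparisons 3 to 6 of the 39 had an unadjusted p under 0.05, and limma passed 0, where 0% to 0.0209% of all genes passed. DESeq2 passed 2 for Mif deletion at 24 weeks, among them Uros, an enzyme of haem synthesis, and 4 at 42 weeks, among them Sptb, Blvrb and Lmo2, where 2.27% and 9.94% of all genes passed. It passed Fech, which inserts iron into haem, with Sptb and Blvrb for 42 against 24 weeks in Apoe-/-Mif-/- mice, and Sptb alone for the interaction, where 6.2% and 5.74% of all genes passed. These counts are small, and nothing particular to the lists is read from them. Of 16 further genes of haem synthesis and its supply, 13 were tested. Alas1, the form of the first enzyme used outside erythroid cells, averaged 110 CPM over all libraries, against 25.1 CPM for Alas2, and was counted in all 16. Alad, the next enzyme, averaged 94.4 CPM and Ppox, an enzyme of a late step, 77.2 CPM. For 42 against 24 weeks in Apoe-/- mice, 6 of the 13 were higher and 7 lower, with a median log2 fold change of -0.22 beside -0.12 over all genes.

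Of 17 genes of the red cell membrane and skeleton, 6 were tested and 3 were at 0 counts in all libraries. The highest were Aqp1, a water channel also of endothelium, at 468 CPM on average, Cd47, a surface protein of most cells, at 97.9 CPM, and Epb41, protein 4.1, at 59.2 CPM. Sptb had 735 and 855 counts in the 42-week Apoe-/-Mif-/- libraries 1 and 4, where Slc4a1 had 0, and 1 to 131 elsewhere. Its log2 fold change for 42 against 24 weeks in these mice was 6.47 ± 1.93 (SE, edgeR adjusted p = 0.173) and rests on the 2 libraries. For 42 against 24 weeks in Apoe-/- mice 4 of 6 were higher and 2 lower, with a median of 0.06.

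Of 18 genes of red cell enzymes and late maturation, 12 were tested. Gpx1, a glutathione peroxidase, averaged 3611 CPM, Prdx2, a peroxiredoxin abundant in red cells, 275 CPM and Blvrb, a biliverdin reductase, 247 CPM. In the same comparison 8 were higher and 4 lower, with a median log2 fold change of 0.44. Prdx2, which ran from 48.7 to 631 CPM over the libraries, had -0.21 (edgeR adjusted p = 0.947) where globin had 3.42 to 4.35.

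Erythroid regulators were sparse. Of 9, 2 were tested, and Klf1, the factor that drives adult beta globin, was at 0 counts in all 16 libraries. Lmo2, also an endothelial gene, averaged 80.4 CPM, Epor, the erythropoietin receptor, 13.0 CPM, and Zfpm1, a partner of Gata1, 5.51 CPM. Epor had 396 of its 406 counts in the 42-week Apoe-/-Mif-/- library 1.

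Genes of haemoglobin uptake and haem breakdown ranged from abundant to nearly absent. Fth1 and Ftl1, the ferritin chains that store iron, averaged 9704 and 6145 CPM, and Hp, haptoglobin, 1339 CPM. Low members were Cd163, the receptor that takes up haemoglobin bound to haptoglobin, at 1.22 CPM, the iron exporter Slc40a1 at 0.931, the haem binder Hpx at 0.790 and the factor Spic at 0.038 CPM. Of 10, 6 were tested, and 4 of these were higher and 2 lower at 42 weeks in Apoe-/- mice, with a median of 0.48 and 0 called. Ftl1 had 1.47 (edgeR adjusted p = 0.322).

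Platelet and neutrophil markers each summed to less than globin in each library. Summed levels of 10 platelet and megakaryocyte genes ran from 1.29 to 350 CPM and of 12 neutrophil genes from 1.39 to 156 CPM, while summed globin ran from 136 to 19867 CPM. In the 42-week Apoe-/- library 2 the platelet genes summed to 64.7 CPM, with Pf4, platelet factor 4, at 63.8 CPM. Proliferation genes summed to between 3.03 and 176 CPM over the 16 libraries.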

How the data were processed

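Sections of the brachiocephalic artery of 16 mice gave 16 polyA RNA libraries by Smart-seq2, a full-length method that neither tags molecules nor keeps strand. Raw counts by gene symbol make up the deposited count table. Tools named in the submitters' processing notes are cutadapt 1.18, Trim Galore 0.6.4, FastQC 0.11.5 and STAR 2.5.2b, and the build is GRCm39. The counting program and annotation are not given in the sources used here. A second deposited table holds values that the authors variance-stabilised on a log2 scale for 9578 genes. The blank row, at most 0.00257% of a library, and the 2 reporter rows were left out.

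Groups came from the genotype and diet labels, and replicate numbers follow accession order. The quasi-likelihood test of edgeR 4.0.16 (R 4.3.3) was applied to the counts after TMM scaling and filterByExpr, with a minimum count of 10 and total of 15. A single model held all 16 libraries, which leaves 12 residual degrees of freedom. P-values were adjusted by Benjamini-Hochberg over 10634 genes, and called means adjusted p under 0.05. Standard errors are approximate: the size of the log2 fold change divided by the square root of F. Alternatives were DESeq2 1.42.0, limma 3.58.1 on the deposited log2 values, size factors, no filter, only the groups compared, plate row B alone, CPM without TMM or without mitochondrial genes, counts under 1% of a row's maximum set to 0, summed copies, and each library left out. Relations used log2(CPM + 1) and 100000 resamples. Plate row B held 12 libraries with each group in adjacent positions, so that group and position cannot be told apart there. Intervals and the limit of 3 counts for a count of 0 cover counting error only. The number of counts sets the precision, from 378066 to 8649525 per library. The tests were tried on simulated data.

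The named genes are the 7 members, the genes called and the 3 most abundant of each list, and the 10 genes most like globin, predicted genes excepted. Members and lists were chosen with earlier results of these data known. Some genes of the lists are counted but not reported here by name.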

Additional observations from a re-analysis of the deposited data

Results flagged for a closer look

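Of 44 groups of 4 libraries examined for a single library far from the rest, 12 had one. Chance gives about 1 in 20 only for independent values with a normal spread. CPM values are skewed and the globin genes vary together, so the 12 are not set against that share. The 42-week Apoe-/- library 2 accounts for 6 of the 12. It had 7210 CPM of Hba-a1, 3455 of Hba-a2, 7967 of Hbb-bs, 1235 of Hbb-bt and 61.8 of Bpgm, and 1.49% of its counts came from the 7 genes. The 24-week Apoe-/- library 1 was far above its group for Hba-a2, at 294 CPM, and for Hbb-bs, at 531 CPM. The 24-week Apoe-/-Mif-/- library 4 held 128 CPM of Alas2.

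Slc4a1 stood out in 3 groups. It reached 117 CPM in the 24-week Apoe-/- library 4 and 4.31 CPM in the 42-week Apoe-/-Mif-/- library 3. The value of 0.463 CPM in the 24-week Apoe-/-Mif-/- library 4 is a single count beside 3 libraries at 0.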

How the results depend on the processing

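The counts of members called with edgeR, 0 in each comparison, were most affected by the test. DESeq2 passed 1 member for Mif deletion at 24 weeks, 1 at 42 weeks, 5 for 42 against 24 weeks in Apoe-/- mice, 1 in Apoe-/-Mif-/- mice and 1 for the interaction. Without a filter on low counts edgeR passed 2 for 42 against 24 weeks in Apoe-/- mice and 1 for the interaction. No share of all genes is given for that setting. The cause of these differences between settings was not tested. Among 199 log2 fold changes under settings other than leaving out a library, 182 kept direction and side of the threshold, 12 passed it, and 5 turned. These were Bpgm for Mif deletion at 24 weeks with limma (0.54), and, for Mif deletion at 42 weeks, Hbb-bt with size factors (0.27), DESeq2 (0.27) and limma (0.48) and Hbb-bs with limma (0.31). Size factors moved the median of all genes by 0.07, 0.19, 0.30, 0.41 and 0.12 on the log2 scale over the 5 comparisons in the order Mif deletion at 24 and 42 weeks, duration with and without Mif, interaction. Leaving out 1 library turned 10 of 288 values. The ranges so obtained for Mif deletion at 24 weeks were -1.21 to 6.56 for Alas2 and -0.56 to 0.91 for Bpgm. For Mif deletion at 42 weeks they were -1.68 to 0.77 for Hba-a1, -1.54 to 0.59 for Hba-a2, -1.59 to 1.47 for Hbb-bs and -1.32 to 1.81 for Hbb-bt. For 42 against 24 weeks in Apoe-/-Mif-/- mice Alas2 ran from -5.77 to 2.25, and for the interaction Hbb-bs ran from -3.24 to 0.50 and Hbb-bt from -3.12 to 0.021. The values that turned were those without the 42-week Apoe-/- library 2 for globin, without the 24-week Apoe-/-Mif-/- library 4 for Alas2, and without that library or the 24-week Apoe-/- library 4 for Bpgm. Slc4a1, with 422 counts in all, most of them in 1 library, and 0 in 7 libraries, did not pass the filter. The relation of globin to Alas2 passed an adjusted p of 0.05 only for Pearson r within plate row B (permutation, adjusted p = 0.0348). No paired analysis was possible because each library is a different mouse and the replicate numbers only follow accession order.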
